A study of Saccharomyces cerevisiae with 177 samples.

Results

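Budding yeast of one mating type sense the peptide pheromone of the other through a receptor coupled to a trimeric G protein, whose released beta-gamma subunits recruit a scaffolded MAP kinase cascade. The cascade ends on the transcription factor Ste12, which raises the genes of cell-cycle arrest, agglutination, cell fusion and adaptation, several members of the pathway itself among them. In cells that meet no pheromone, as here, the pathway still gives low basal transcription of these genes. The 10 genes described here were chosen by name and systematic identifier from the 5794 genes in each file. GPA1 (YHR005C), STE4 (YOR212W) and STE18 (YJR086W) encode the alpha, beta and gamma subunits of the G protein. STE5 (YDR103W) encodes the scaffold of the cascade, FUS3 (YBL016W) the mating MAP kinase, and STE12 (YHR084W) the transcription factor. FAR1 (YJL157C) encodes the inhibitor that arrests the cell cycle, and SST2 (YLR452C) the regulator that speeds GTP hydrolysis by Gpa1 and so ends the signal. AGA1 (YNR044W) encodes the anchor subunit of a-agglutinin, and FUS1 (YCL027W) a membrane protein needed for cell fusion. All 10 were found. In the R64 (sacCer3) annotation their coding regions lie at chrVIII:113499-114917 (GPA1, minus strand), chrXV:742910-744181 (STE4, plus), chrX:586068-586400 (STE18, plus), chrIV:658350-661103 (STE5, plus) and chrII:192451-193512 (FUS3, plus). Those of the rest lie at chrVIII:274174-276240 (STE12, plus), chrX:123836-126328 (FAR1, minus), chrXII:1039270-1041366 (SST2, minus), chrXIV:703699-705876 (AGA1, plus) and chrIII:71803-73341 (FUS1, plus). No annotated gene overlaps any of them.

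The study labelled newly made RNA with 4-thioU for 5 minutes and sequenced it in 177 libraries of 60 groups, 3 libraries in most groups, to ask how Mediator, the coactivator between activators and RNA polymerase II, serves transcription. Every strain is MATalpha and carries ade2::hisG with mutations in his3, leu2, lys2, met15, trp1 and ura3 (the genotype of med15del omits the name his3). In 22 comparisons, cells treated with 3IAA (3-indoleacetic acid) were set against DMSO-treated cells of the same strain. These strains express OsTIR from the GPD1 promoter and carry an IAA7 degron, so that 3IAA leads to loss of the tagged protein, and many also carry RPB3-3xFlag. The tagged proteins are the TFIIH cyclin Ccl1, the kinase-module subunits CDK8 (gene SRB10) and Med12, and Med1, Med5, Med7, Med9, Med10, Med14, Med15, Med16, Med17, Med19 and Med31. The genotype given for the Med31 strain names the degron on MED19, and the sample titles were followed. Double-degron strains are Med1_5, Med2_15, Med15_Med16 and Med15_Taf1, and Med15_Spt7 (MED15 and SPT7), whose DMSO libraries alone were used, for levels. Split-subunit strains carry a pair of plasmids with complementary pieces of Med7 (Med7C, Med7N) or Med14 (Med14C, TID), of which 1 piece bears the degron. The chromosomal gene is deleted in Med7C, Med7N and TID, and in Med14C it bears a degron as well. Mutant strains were set against control strains in 6 comparisons: med15del (gal11 deleted) and med16del (sin4 deleted) against the common parent WT (BY4705), neither carrying OsTIR, med7N_del and Med7_EWE3 against a common Med7_WT, Med21_EWE4 against Med21_WT, and Med6_delH1, which lacks helix 1 of Med6, against Med6_WT. These last 4 mutants and their controls carry OsTIR, a chromosomal deletion of the subunit and a plasmid copy. Med7_EWE3, Med21_EWE4 and Med21_WT have 2 libraries each. In the stress experiment, with 15 libraries of the Med15 degron strain, 3IAA cells under SM or HS were set against DMSO cells under the same stress, and stressed DMSO cells against unstressed DMSO cells, which both stresses share. The labels do not spell out HS and SM, and these names are kept. Each strain may be 1 clone, no strain without a degron was treated with 3IAA among these groups, and the labels do not say that libraries A, B and C are separate cultures, so p-values measure the spread between libraries only.

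Ste12 binds the pheromone response element, whose core is TGAAACA. To show where the members carry this element, windows of 200 bases, each beginning 300 bases upstream of the start codon, were read from the RefSeq genome R64 (sacCer3) on the coding strand and searched for TGAAACA on both strands. The element was found in 5 of the 10 members, against 274 of 5792 genes with such a window (4.73%). FUS1 and FUS3 each hold 2 copies, as do 12 of all 5792 genes (0.207%), and AGA1, SST2 and STE18 hold 1 each. Among lists of related genes it was found in 8 of 17 other pheromone-induced genes and in 3 of 17 other pathway components. The windows of FUS1 and FUS3, with 2 copies each, of AGA1 and SST2, which several results turn on, and of GPA1, which holds none and moved apart from AGA1, are printed 5′ to 3′ with the element in capitals (TGTTTCA where it lies on the other strand).
FUS1: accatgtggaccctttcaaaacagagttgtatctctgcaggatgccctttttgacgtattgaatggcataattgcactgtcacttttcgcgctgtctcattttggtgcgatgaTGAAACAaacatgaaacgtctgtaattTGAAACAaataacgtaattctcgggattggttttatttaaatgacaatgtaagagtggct
FUS3: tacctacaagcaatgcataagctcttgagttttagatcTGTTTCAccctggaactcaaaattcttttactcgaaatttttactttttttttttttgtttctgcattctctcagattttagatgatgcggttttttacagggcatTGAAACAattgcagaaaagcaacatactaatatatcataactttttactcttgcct
AGA1: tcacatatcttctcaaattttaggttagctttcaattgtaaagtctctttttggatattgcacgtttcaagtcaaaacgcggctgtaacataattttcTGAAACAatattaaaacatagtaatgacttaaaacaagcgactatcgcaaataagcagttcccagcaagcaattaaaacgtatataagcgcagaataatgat
SST2: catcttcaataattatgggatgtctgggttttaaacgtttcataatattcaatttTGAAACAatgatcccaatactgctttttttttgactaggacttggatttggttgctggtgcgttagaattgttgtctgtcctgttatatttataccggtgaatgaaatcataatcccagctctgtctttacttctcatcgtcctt
GPA1: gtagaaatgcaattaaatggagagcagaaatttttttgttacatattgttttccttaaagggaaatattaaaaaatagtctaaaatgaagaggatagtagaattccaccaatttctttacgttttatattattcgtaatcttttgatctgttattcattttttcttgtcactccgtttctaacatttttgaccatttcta
These windows lie at chrIII:71503-71702 (FUS1, plus strand), chrII:192151-192350 (FUS3, plus), chrXIV:703399-703598 (AGA1, plus), chrXII:1041467-1041666 (SST2, minus) and chrVIII:115018-115217 (GPA1, minus). The base nearest the start codon lies 154 and 181 bases upstream in FUS1, 150 and 256 in FUS3, 196 in AGA1 and 239 in SST2. A match is a description of letters, and STE4, STE5, STE12, FAR1 and GPA1 have none in this window only.

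In control groups the G-protein beta subunit gene was the highest of the 10 and the fusion gene the lowest. Levels were compared as each value per 1000000 of the library total per kb of coding length, over 27 groups of DMSO cells, control strains and WT. The median group mean of STE4 was 259 (groups between 176 and 356), that of GPA1 182 (115 to 302), and that of STE12 145 (67.8 to 200). FUS3 had a median of 122 (64.7 to 192), FAR1 of 120 (79.7 to 276) and SST2 of 104 (57.1 to 210). The medians of the remaining genes were 103 for AGA1 (14.3 to 217), 98.3 for STE5 (56.3 to 122), 71.6 for STE18 (32.8 to 138) and 37.1 for FUS1 (4.82 to 79.3). The order is firm at both ends and loose in the middle. Every STE4 library was above every GPA1 library in 23 of 27 groups, every GPA1 library above every STE12 library in 21, and every STE18 library above every FUS1 library in 20. FUS3 and FAR1 were separated in this way in only 3 groups, and SST2 and AGA1 in 11. The 2 effectors also varied most between strains: AGA1 was lowest in the Med7 strain, at 14.3 ± 1.22, and highest in Med7_WT, at 217 ± 4.77 (SD, n = 3 each). FUS1 was lowest in the same Med7 strain, at 4.82 ± 2.00 (SD, n = 3). The alpha-factor genes, STE3 and SAG1, which mark alpha cells, summed to 316 to 6285 per 1000000 over the 60 groups, and 7 a-cell genes to 35.8 to 173. STE6 alone had a median of 44.9 per 1000000, while MFA1, MFA2, AGA2 and ASG7 were at 0 in 10, 20, 25 and 46 libraries. Of the alpha-cell genes, MF(ALPHA)1 had a median group mean of 2679 per 1000000, against 3616 for the sum, which thus largely follows this gene. AGA1 is made by both mating types, but its partner AGA2 is an a-cell gene.

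**Figure D1:**
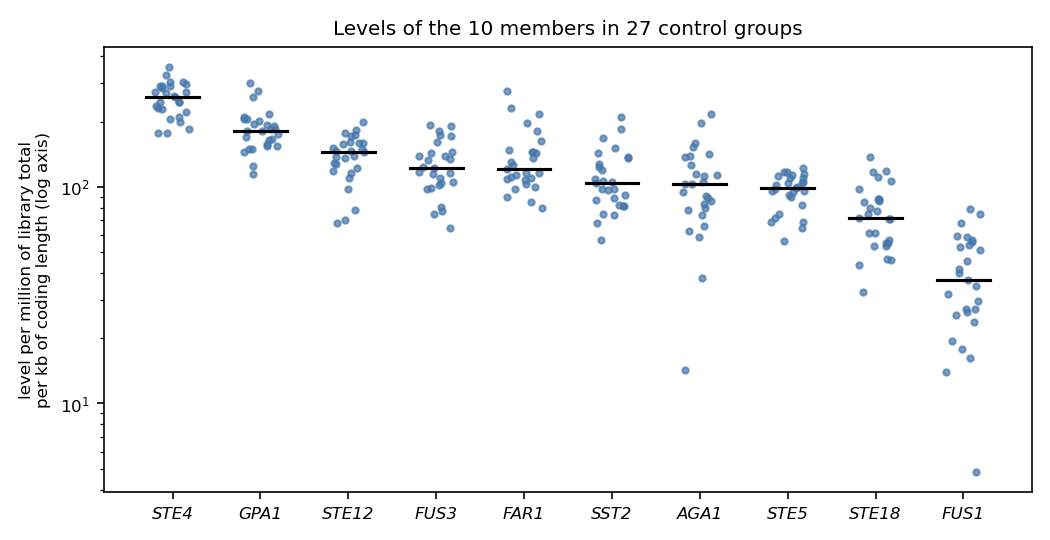
Levels of the 10 genes (value per 1000000 of the library total per kb of coding length, log axis) in DMSO cells, control strains and WT, each point the mean of 1 of 27 control groups and each bar the median of the groups. STE4 lies highest at a median of 259 and FUS1 lowest at 37.1, and the AGA1 and FUS1 points spread furthest down.

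Values of the 28 degron and mutant comparisons are signals already scaled by the authors, which were kept on that scale. Changes are on the log2(signal + 1) scale, which understates those of low genes, and a call is an adjusted p under 0.05 over all genes tested. They were tested by limma with Benjamini-Hochberg adjustment where the mean signal reached 10: FUS1 passed in 23 of the 28 comparisons, AGA1 in 27, STE18 in 6 and the other 7 members in 28. Counts and recovered whole reads put the depth at 4384651 to 10032201 and at 2119071 to 10714175 reads per library. The depth of the other 56 libraries is unknown. In the deletion strains the deleted genes were near 0: MED15 signal was 0.66 to 1.05 in med15del against 78.9 to 83.2 in WT, and MED16 signal 0.13 to 0.17 in med16del against 23.5 to 25.2 in WT. In 14 comparisons between 95.4 and 100% of genes tested were called, nearly all lower. There, and wherever the median of all genes moved by over 0.1, each member's change is also given after TMM scaling, a change relative to the bulk of genes. On either scale, fewer cells and less new RNA per cell cannot be told apart.

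Among the 4 stress comparisons the members rose furthest with Med15 depletion under SM. In SM cells treated with 3IAA, 8 of the 10 members were higher than in SM cells treated with DMSO and none was lower by edgeR's quasi-likelihood test, against 48.1% of 5547 genes called in either direction and 21% called higher. FUS1, the fusion gene, stood at 181, 164 and 213 TMM-scaled counts per 1000000 (CPM) in 3IAA cells under SM, against 87.3, 74.0 and 81.9 CPM in DMSO cells under SM. All 3 values with Med15 depleted lay above all 3 with Med15 present, a log2 change of 1.19 ± 0.09 (SE, adjusted p = 7.51e-09), or 2.29-fold. AGA1, the agglutinin anchor, stood at 681, 618 and 816 CPM in 3IAA cells, against 456, 370 and 475 CPM in DMSO cells. Its groups did not overlap either, and the log2 change was 0.70 ± 0.10 (adjusted p = 1.66e-05), or 1.62-fold. The adaptation regulator SST2 rose by 0.47 on the log2 scale, the transcription factor STE12 by 0.42, FAR1 by 0.37, STE5 by 0.35, FUS3 by 0.27 and GPA1 by 0.18. The 2 that did not pass were the beta and gamma subunits of the G protein: STE4 changed by 0.02 ± 0.07 and STE18 by -0.16 ± 0.13 (adjusted p of 0.803 and 0.31). Of 16 other pheromone-induced genes tested, 10 were higher and 1 lower, with a median log2 change of 0.54 against -0.04 over all genes. PRM2, a fusion-stage membrane protein gene, had 109, 101 and 115 counts in 3IAA cells under SM against 32, 9 and 15 counts in DMSO cells under SM (log2 change 2.49 ± 0.30). PRM1, which acts in plasma membrane fusion, rose by 1.46 ± 0.16, and CIK1, a kinesin partner used in nuclear fusion, fell by 0.22. Of 17 other pathway components, 5 were higher and 1 lower. The MAP kinase phosphatase gene PTP3 rose by 0.46 ± 0.06 and the MAP kinase kinase kinase gene STE11 by 0.45 ± 0.07, while DIG2, an inhibitor of Ste12, fell by 0.59 ± 0.08.

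Mating-type markers moved in the same libraries. The 4 alpha-cell markers, all called lower, summed to 1180 to 1434 CPM in 3IAA cells under SM, against 4034 to 4361 CPM in DMSO cells under SM. Most of that fall is MF(ALPHA)1, at means of 704 CPM in 3IAA cells and 3298 CPM in DMSO cells. The log2 change was -2.23 for both alpha-factor genes, but -0.28 for STE3 and -0.24 for SAG1. The 7 a-cell markers, 6 of them called higher, summed to 129 to 166 CPM in 3IAA cells, against 63.2 to 69.0 CPM in DMSO cells. The part of either shift in the members' rise was not tested.

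Without Med15 depletion, the same stress moved few members. In DMSO cells under SM, 1 of the 10 members was higher and 1 lower than in unstressed DMSO cells (52.6% of genes called). SST2 stood at 309, 265 and 277 CPM under SM, against 217, 233 and 225 CPM without stress (log2 change 0.33 ± 0.07, adjusted p = 5.83e-04). STE18 stood at 19.8, 18.5 and 17.6 CPM under SM, against 29.3, 26.5 and 36.4 CPM without stress (log2 change -0.71 ± 0.12, adjusted p = 1.07e-04). Neither pair of groups overlapped. FUS1 and AGA1 changed by -0.08 ± 0.10 and -0.06 ± 0.10, with overlapping libraries.

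Under HS most members were lower. In DMSO cells under HS, 9 of the 10 members were lower than in unstressed DMSO cells, against 74.5% of genes called in either direction and 37.6% called lower. AGA1 stood at 177, 168 and 144 CPM under HS, against 488, 429 and 439 CPM without stress (log2 change -1.47 ± 0.11, adjusted p = 9.81e-10). FAR1, the cell-cycle inhibitor, stood at 130, 119 and 110 CPM under HS, against 276, 261 and 260 CPM without stress (log2 change -1.15 ± 0.07, adjusted p = 1.15e-10). Both genes lay lower in every HS library than in any unstressed one. FUS1 fell by 0.88 on the log2 scale, SST2 by 0.78, STE4 by 0.69, STE12 by 0.64, STE5 by 0.51, GPA1 by 0.38 and FUS3 by 0.25. STE18 did not pass, at 34.5, 28.7 and 29.6 CPM under HS against 29.3, 26.5 and 36.4 CPM without stress. Of the other pheromone-induced genes, 3 were higher and 9 lower of 16 tested. AFR1, which acts in receptor desensitisation, rose by 1.51 ± 0.13, whereas PRM4 fell by 1.52. Of the 17 other components, 1 was higher, STE11 at 0.46 ± 0.07, and 13 were lower, PTP3 most at -1.16 ± 0.06. The alpha-cell marker sum was 1246 to 1493 CPM under HS, against 3505 to 3963 CPM without stress, and its part in these falls was not tested.

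With Med15 depletion under HS, 3 of 10 members were called, near the share of all genes. In HS cells treated with 3IAA, 2 members were higher and 1 lower than in HS cells treated with DMSO (34.9% of genes called). STE5 stood at 256, 255 and 268 CPM in 3IAA cells, against 194, 227 and 200 CPM in DMSO cells (log2 change 0.32 ± 0.06, adjusted p = 5.32e-04). GPA1 stood at 180, 192 and 205 CPM in 3IAA cells, against 167, 161 and 167 CPM in DMSO cells (log2 change 0.22 ± 0.05). SST2 stood at 109, 116 and 104 CPM in 3IAA cells, against 135, 137 and 121 CPM in DMSO cells (log2 change -0.26 ± 0.08, adjusted p = 0.0131). None of these 3 pairs overlapped. The small counts are unsteady: 5 members were higher without replicate A of the DMSO HS group, and 0 were lower without its replicate B or without replicate C of the 3IAA HS group. The count lower was 3 without replicate C of the DMSO HS group, 2 without replicate C of the 3IAA SM group, and 2, with FUS3 added, when the replicate letters, which pair these libraries, were taken as a block (35.7% of genes called). For 4 members the response to depletion itself differed between the stresses, a count near the share of all genes. The difference between the change under HS and that under SM was -0.96 ± 0.15 for AGA1, -0.94 ± 0.15 for FUS1, -0.72 ± 0.10 for SST2 and -0.44 ± 0.10 for FUS3, and these 4 of 10 members passed (28.5% of genes called). Among other pheromone-induced genes, 2 were higher and 3 lower of 16 under HS with Med15 depleted, and of other components 6 were higher and 0 lower of 17. The alpha-cell marker sum was 434 to 494 CPM in 3IAA cells under HS, against 1246 to 1493 CPM in DMSO cells under HS. The log2 changes were -1.94 for MF(ALPHA)1, -1.99 for MF(ALPHA)2 and -0.49 for STE3, while SAG1 did not pass (-0.004 ± 0.11). The a-cell marker sum was 67.0 to 74.2 CPM in 3IAA cells under HS, against 56.1 to 58.8 CPM in DMSO cells under HS. The part of both sums was not tested. No 3IAA group without stress is in this experiment.

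**Figure D2:**
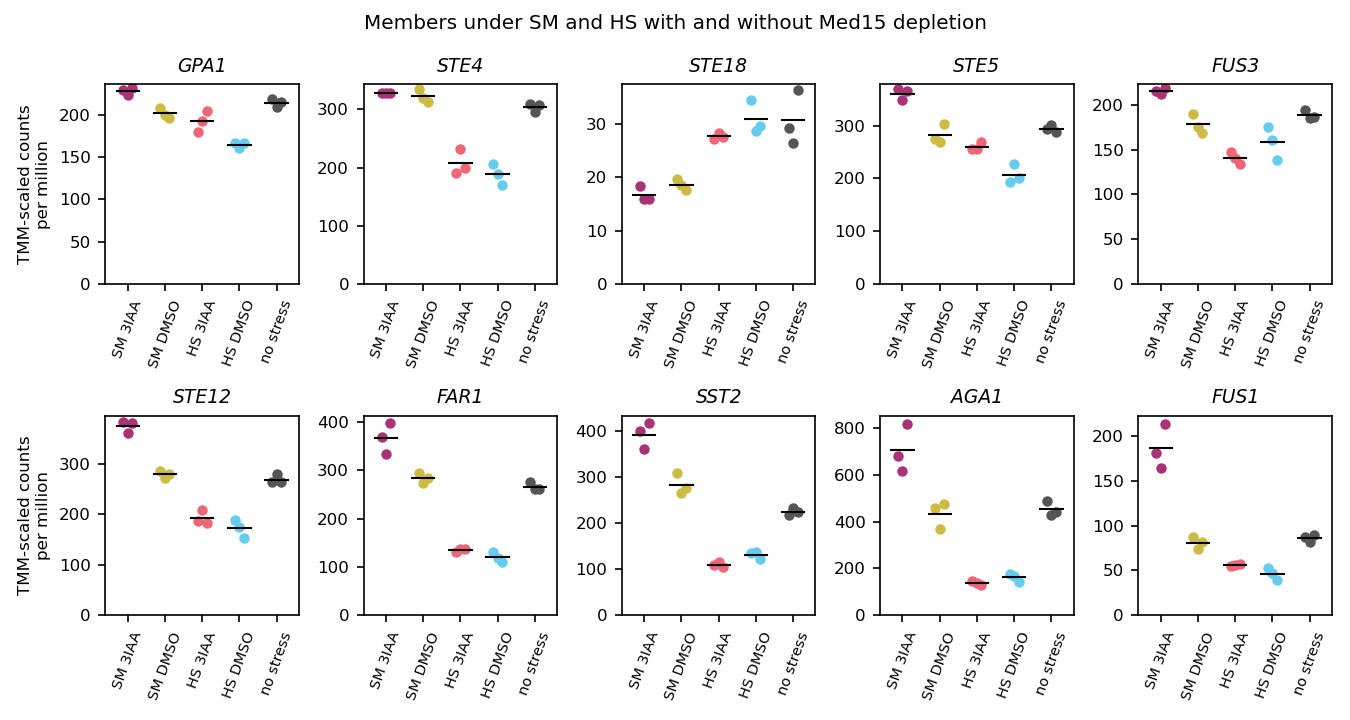
TMM-scaled counts per 1000000 of each of the 10 genes in the 15 libraries of the stress experiment, points for libraries and bars for means of 3. FUS1 and AGA1 stand highest under SM with 3IAA (164 to 213 and 618 to 816 CPM), and the HS groups lie low in AGA1 and FAR1.

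In the comparisons with a general fall of signal the pathway fell too, but its members did not fall alike. Of these, 10 are depletions. The median log2 change of all genes was -2.18 with Ccl1 depletion, -2.13 with Med10, -1.96 with Med14, -1.79 with Med14C, -2.499 with Med15_Taf1, -1.66 with Med17, -1.23 with Med19, -0.83 with Med31, -0.81 with Med7N and -0.50 with Med7C. On the deposited scale all members tested were lower, 8 of 8 with Ccl1 (99.9% of genes called), 9 of 9 with Med10 (99.9%), 8 of 8 with Med14 (99.8%), 9 of 9 with Med14C (100%), 10 of 10 with Med15_Taf1 (100%), 9 of 9 with Med17 (99.8%), Med19 (98.2%), Med31 (97.6%) and Med7N (99.4%). Med7C was the exception, with 7 of 9 lower (95.4% called). AGA1 and FUS1 did not pass there (log2 changes of -0.19 ± 0.10 and -0.20 ± 0.10), although with the replicate letters, which pair these libraries, as a block all 9 passed. At these backgrounds a fall says nothing about the members.

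AGA1 kept the largest share of its DMSO signal of the 10 members in 8 of the 10 depletions, all but Med19 and Med31, where SST2 kept more. With Ccl1 depletion it stood at 42.7, 53.2 and 43.8 in 3IAA cells, against 58.7, 59.0 and 52.8 in DMSO cells, groups that overlap. Its log2 change of -0.29 ± 0.09 lay 1.89 above the median gene, and after TMM scaling it was higher by 1.94 ± 0.07 (adjusted p = 1.82e-07). With Med17 depletion, AGA1 signal was 42.2, 38.6 and 34.0 in 3IAA cells, against 52.9, 58.6 and 52.5 in DMSO cells, without overlap, and after TMM scaling it was higher by 1.20 ± 0.07. With Med15_Taf1 depletion it was 64.2, 46.2 and 65.2 in 3IAA cells, against 153, 131 and 147 in DMSO cells, higher by 1.30 ± 0.09 after TMM scaling. The same held for Med14C, Med10, Med14, Med19, Med7N and Med7C, at 1.01 ± 0.07, 0.91 ± 0.07, 0.89 ± 0.10, 0.55 ± 0.06, 0.46 ± 0.05 and 0.34 ± 0.06. Relative to the median gene AGA1 was thus above 0 in 10 of 10 depletions, by 0.05 (Med31) to 1.89, and after TMM scaling it passed in 9, all but Med31 (0.07 ± 0.09). Of all genes, 24% (Med7C) to 75.1% (Med15_Taf1) were called after TMM scaling in these depletions.

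SST2 and STE12, the off-switch of the G protein and the transcription factor, lay above the median gene in 9 and 10 of these 10 depletions, by medians of 0.41 and 0.20. After TMM scaling SST2 was called higher in 8 and STE12 in 9, and neither was called lower in any. SST2 signal with Med15_Taf1 depletion was 61.2, 58.9 and 61.9 in 3IAA cells, against 191, 176 and 199 in DMSO cells, a rise of 0.98 ± 0.06 after TMM scaling. With Med17 depletion it was 33.9, 34.4 and 29.3 in 3IAA cells, against 53.3, 64.6 and 57.9 in DMSO cells, a rise of 0.88 ± 0.07 after TMM scaling. The DMSO groups lay above the 3IAA groups in every library, so the rise is one relative to other genes. FUS1 was tested in 8 depletions and called higher in 4 after TMM scaling, by 0.87 ± 0.10 with Med15_Taf1 and 0.54 ± 0.11 with Med17. STE5 was called higher in 5, the most with Ccl1, at 0.67 ± 0.06. Of all genes, 24% (Med7C) to 75.1% (Med15_Taf1) were called after TMM scaling in these 10 depletions. The tallies of FUS1 and STE5 thus do not set them apart. Relative to the median gene, STE5 turned negative with Med10, Med14C and Med15_Taf1 and STE12 with Med14C and Med15_Taf1 when the pseudocount was 5 in place of 1.

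GPA1, the G-protein alpha subunit gene, went the other way. It lay below the median gene in 9 of 10 depletions, by 0.24 at the median, and was called lower after TMM scaling in 5 and higher in 1. Of all genes, 24% (Med7C) to 75.1% (Med15_Taf1) were called after TMM scaling in these depletions. The number of calls thus does not set GPA1 apart. With Med15_Taf1 depletion GPA1 signal was 14.4, 13.1 and 13.3 in 3IAA cells, against 141, 151 and 153 in DMSO cells. That is 9.24% of the DMSO mean, a fall by 3.36 ± 0.08 on the log2 scale and by 0.81 ± 0.06 after TMM scaling (adjusted p = 2.95e-08). With Med14C depletion it was 21.4, 25.3 and 23.3 in 3IAA cells, against 134, 141 and 129 in DMSO cells, a fall by 0.63 ± 0.05 after TMM scaling. Its partner STE4 also fell there after TMM scaling, by 0.47 ± 0.05 with Med14C and 0.35 ± 0.06 with Med15_Taf1. The exception was Ccl1 depletion, where GPA1 was higher by 0.42 ± 0.13 and STE4 by 0.35 ± 0.09 after TMM scaling.

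Counted by depletion after TMM scaling, 8 members were higher and none lower of 8 with Ccl1, against 74.6% of genes called in either direction and 36.5% called higher. With Med15_Taf1 7 were higher and 3 lower of 10 (75.1% of genes called), with Med10 4 and 1 of 9 (72.5%), with Med14C 5 and 3 of 9 (65.6%), with Med14 2 and 1 of 8 (57.6%) and with Med17 5 and 0 of 9 (55.5%). In milder depletions, Med7N gave 4 higher and 1 lower of 9 (42.1%), Med19 6 and 1 of 9 (41%), Med31 4 and 0 of 9 (38.1%) and Med7C 2 and 0 of 9 (24%). Of these counts, that for Med14C was 3 higher without DMSO replicate C, and that for Med19 3 without replicate B of either group. For Med31 it was 1 without 3IAA replicate A or DMSO replicate B and 2 without 3IAA replicate C or DMSO replicate A. For Med7C it was 1 without DMSO replicate A and 4 without DMSO replicate C. With Med14, 1 member was higher without either of 3IAA A and C or any DMSO library, and 2 were lower without 3IAA A or B or DMSO A and 0 without DMSO B or C. The single lower member of Med7N was lost without 3IAA A or B or DMSO A or B, and Med10 had 2 lower without 3IAA C. Of the other pheromone-induced genes, with Med15_Taf1 4 were higher and 5 lower of 9 after TMM scaling, and with Ccl1 3 were higher and 1 lower of 6. Of the other components 5 were higher and 9 lower of 17 with Med15_Taf1, and 7 higher and 3 lower of 17 with Ccl1. MSG5, a MAP kinase phosphatase, and the MAP kinase kinase gene STE7 were the largest rises in both. The 4 alpha-cell markers summed to 783 to 930 per 1000000 in 3IAA cells of Med15_Taf1, against 4424 to 4908 in DMSO cells, and to 633 to 1218 in 3IAA cells of Ccl1, against 3648 to 4545 in DMSO cells. In 3IAA cells of Med10 these summed to 1017 to 1237, against 4203 to 4419 in DMSO cells, and in 3IAA cells of Med14 to 290 to 340, against 1514 to 1632 in DMSO cells. The 7 a-cell markers summed to 165 to 176 per 1000000 in 3IAA cells of Ccl1, against 40.8 to 49.4 in DMSO cells, and to 37.1 to 43.9 in 3IAA cells of Med15_Taf1, against 43.8 to 50.6 in DMSO cells. They summed to 94.7 to 111 in 3IAA cells of Med10, against 50.6 to 59.4 in DMSO cells, and to 75.3 to 98.1 in 3IAA cells of Med14, against 42.0 to 46.3 in DMSO cells. In the other 6 depletions the group means of the alpha-cell sum were 831 to 5408 in 3IAA cells, against 1735 to 6285 in DMSO cells, and those of the a-cell sum 46.1 to 79.95 in 3IAA cells, against 41.6 to 77.3 in DMSO cells. The part of these shifts in the members' changes was not tested.

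**Figure D3:**
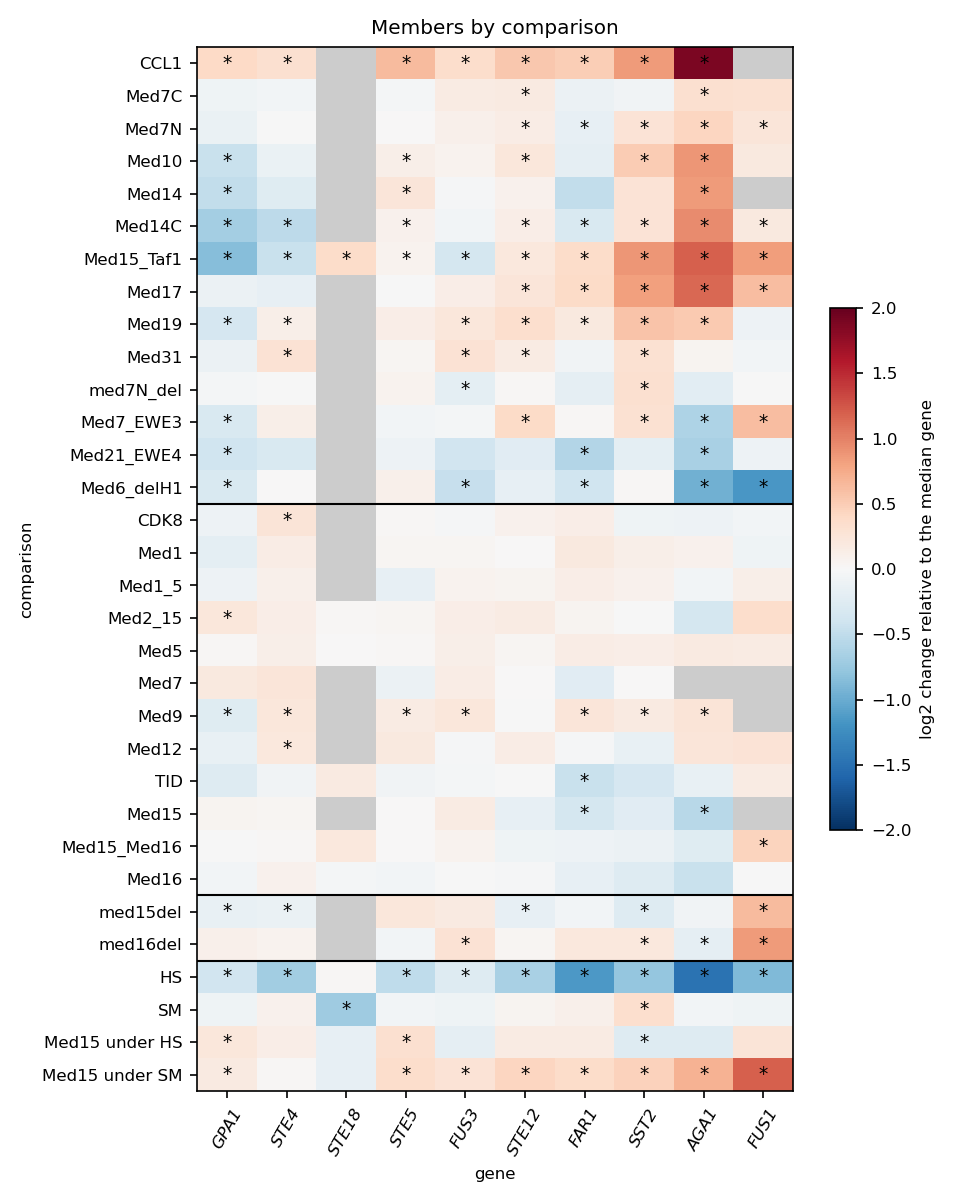
Log2 change of each gene relative to the median gene in all 32 comparisons (in the 4 stress comparisons the log2 change itself), with red for higher, blue for lower and grey for genes not tested. Stars mark calls after TMM scaling. The AGA1 column is red in all 10 general depletions, 1.89 above the median gene with Ccl1, and the GPA1 column is blue in 9 of them.

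**Figure D4:**
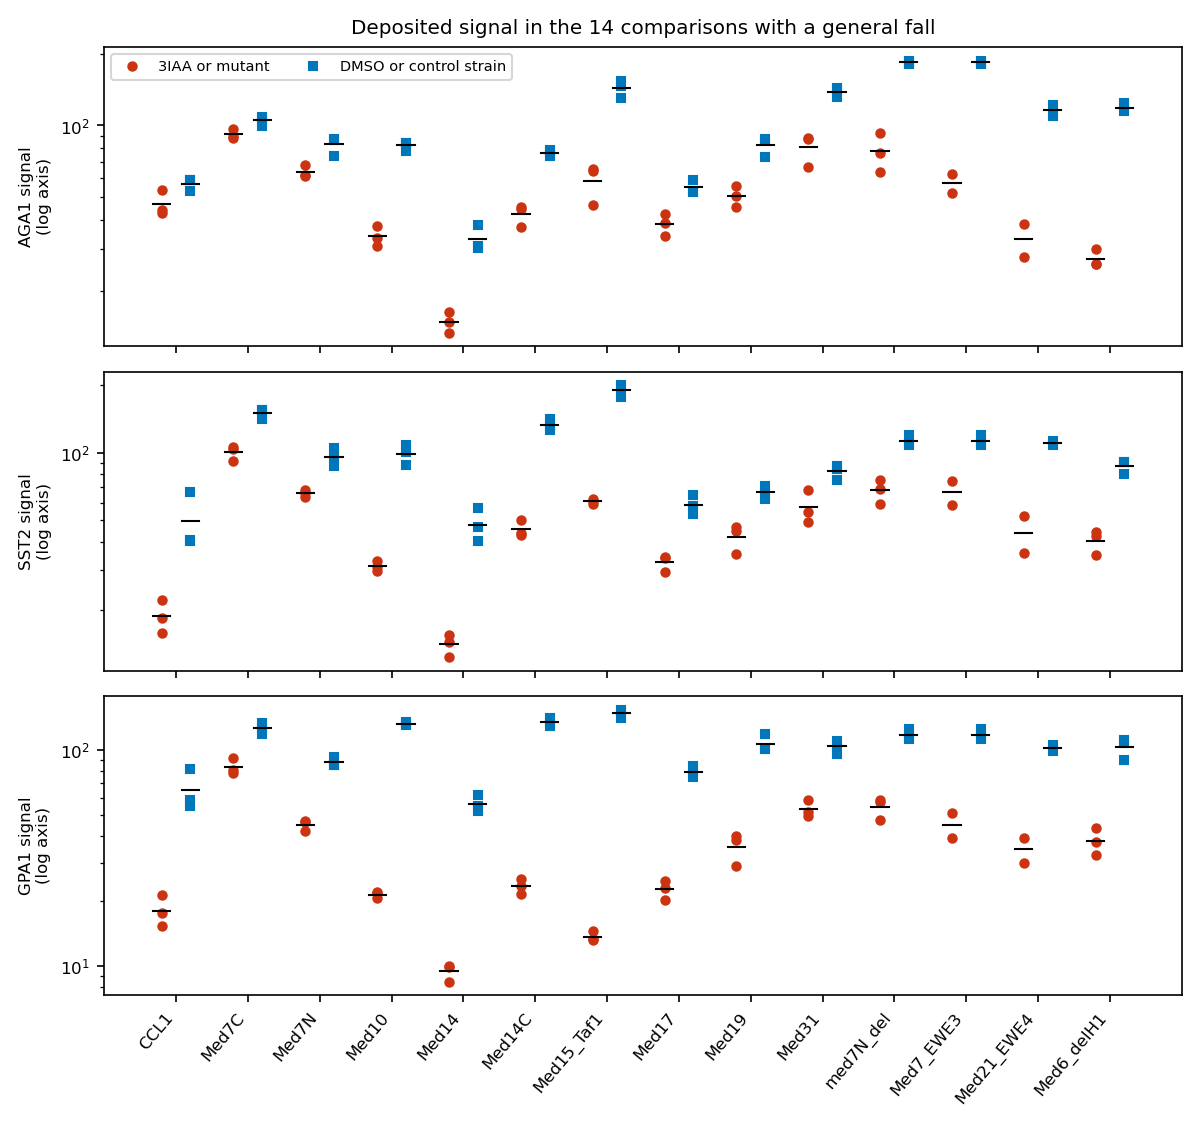
Deposited signal (log axis) of AGA1, SST2 and GPA1 in each library of the 14 comparisons with a general fall, circles for 3IAA or mutant and squares for DMSO or control strain, with bars for means. The AGA1 groups of Ccl1 overlap, and GPA1 with Med15_Taf1 depletion shows the widest gap (9.24% of the DMSO mean).

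Of the 4 mutants with a general fall, 3 had AGA1 lower after TMM scaling. All 9 members tested were lower on the deposited scale in each: med7N_del (99.3% of genes called), Med7_EWE3 (97.6%), Med21_EWE4 (98.7%) and Med6_delH1 (99.8%), with all-gene medians of -1.05, -1.06, -1.14 and -1.12. In Med6_delH1 both effectors fell furthest. FUS1 signal was 7.92, 4.47 and 6.02 in Med6_delH1, against 30.9, 29.8 and 39.1 in Med6_WT, a fall by 1.19 ± 0.16 after TMM scaling. Each mutant value was under 10, so FUS1 met the filter on mean signal only through the Med6_WT libraries. Its call is thus not independent of its fall. AGA1 signal was 30.0, 26.1 and 25.9 in Med6_delH1, against 117, 115 and 124 in Med6_WT, a fall by 0.92 ± 0.08 after TMM scaling (adjusted p = 1.43e-04). No library of the mutant reached the control range for either gene. After TMM scaling 5 members, FUS1 among them, were lower and none higher of 9 (21.8% of genes called). In Med21_EWE4 3 were lower and none higher of 9 (13.8%), AGA1 the most: 27.8 and 38.5 in Med21_EWE4 against 122 and 109 in Med21_WT, a fall by 0.65 ± 0.11. That count was 1 without replicate A of either group, where the lone library is assumed to vary like the others. Med7_EWE3 split the effectors. AGA1 signal was 62.4 and 51.9 in Med7_EWE3, against 186, 188 and 182 in Med7_WT, a fall by 0.63 ± 0.06 after TMM scaling, whereas FUS1 signal was 24.7 and 23.1 in Med7_EWE3, against 33.0, 32.1 and 33.0 in Med7_WT. That is a log2 change of -0.44 ± 0.12 on the deposited scale and of 0.59 ± 0.08 after TMM scaling. There 3 members were higher and 2 lower of 9 (46.3% called), with 1 lower without Med7_EWE3 replicate B. GPA1 lay below the median gene in 4 of 4 mutants, as in 9 of 10 depletions, and was called lower after TMM scaling in 3, by 0.32 ± 0.08 in Med7_EWE3, 0.40 ± 0.09 in Med21_EWE4 and 0.25 ± 0.08 in Med6_delH1. In med7N_del 1 was higher, SST2 by 0.35 ± 0.05, and 1 lower, FUS3 by 0.18 (35.8% called). Without med7N_del replicate A 2 were higher, and none was lower without med7N_del A or C or Med7_WT A or B. The 2 Med7 mutants share their control libraries. The alpha-cell markers summed to 4317 to 5349 per 1000000 in med7N_del and 3084 to 3759 in Med7_EWE3, against 4321 to 4928 in Med7_WT. They summed to 2153 to 2497 in Med21_EWE4, against 4429 to 4629 in Med21_WT, and to 3851 to 4015 in Med6_delH1, against 4150 to 5185 in Med6_WT, and their part was not tested.

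FUS1 was called higher in the Med15_Med16 double depletion, in med15del and med16del and, on the deposited scale, with Med2_15 depletion. It was not called in the single Med16, Med5 or TID depletions, and with Med15 depletion it was too low to test. In the Med15_Med16 double depletion 1 of 10 members was higher and none lower (27.1% of genes called). It was FUS1, with signals of 120, 97.6 and 80.1 in 3IAA cells, against 92.9, 68.4 and 59.97 in DMSO cells. The groups overlap, but each 3IAA library was above the DMSO library of its letter, and the log2 change was 0.43 ± 0.12 (adjusted p = 0.00263). It did not pass without 3IAA replicate A or DMSO replicate C, and with the letters as a block, which pair these libraries, AGA1 was also called, lower by 0.27 (adjusted p = 0.00225, 47.6% of genes called). In the deletion strains FUS1 rose more. Its signal was 15.9, 16.0 and 19.2 in med15del, against 6.12, 6.91 and 8.40 in WT, a log2 change of 1.15 ± 0.11 and of 0.57 ± 0.11 after TMM scaling (adjusted p = 0.00197). In med16del it was 15.3, 15.5 and 14.7, against the same WT libraries, a log2 change of 1.00 ± 0.10 and of 0.81 ± 0.08 after TMM scaling (adjusted p = 1.85e-05). Every deletion library was above every WT library. Each WT value was under 10, so FUS1 met the filter on mean signal only through the deletion libraries. These 2 calls are thus not independent of its rise. On the deposited scale 9 of 9 members were higher in med15del (92.9% of genes called, median of all genes 0.52), and after TMM scaling 1 was higher and 4 lower (49.2%). SST2 was the furthest down of these, by 0.35 ± 0.08 after TMM scaling, with signals of 21.9, 23.0 and 25.6 in med15del against 18.0, 19.8 and 20.7 in WT, so its direction depends on the scale. In med16del 5 of 9 were higher (37.7%) and after TMM scaling 3 higher and 1 lower (40.3%): FUS1, FUS3 (0.24 ± 0.06) and SST2 (0.16 ± 0.05) higher, AGA1 lower (-0.23 ± 0.08). The med15del count after TMM scaling was 2 higher without med15del replicate A and 2 lower without WT replicate B. For med16del it was 2 higher on the deposited scale without WT replicate A, and after TMM scaling 1 higher without med16del replicate A and 0 lower without med16del A, WT A or WT C. The 4 alpha-cell markers summed to 774 to 878 per 1000000 in med15del and 1906 to 2026 in med16del, against 3573 to 4166 in WT, and to 1281 to 1691 in 3IAA cells of Med15_Med16, against 3265 to 4003 in DMSO cells. The 7 a-cell markers summed to 98.0 to 115 per 1000000 in med15del and 74.2 to 79.7 in med16del, against 47.5 to 49.6 in WT, and to 89.2 to 97.7 in 3IAA cells of Med15_Med16, against 47.6 to 52.2 in DMSO cells. Their part in the rise of FUS1 was not tested.

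Med2_15 depletion raised 7 of 10 members on the deposited scale and lowered none (48% of genes called), with an all-gene median of 0.32. FUS1 signal was 55.4, 52.9 and 74.7 in 3IAA cells, against 35.5, 30.7 and 48.0 in DMSO cells (log2 change 0.67 ± 0.18, adjusted p = 0.0099), 0.36 ± 0.14 after TMM scaling, which did not pass (adjusted p = 0.153). GPA1 signal was 224, 230 and 223 in 3IAA cells, against 142, 148 and 177 in DMSO cells (log2 change 0.54 ± 0.12). Both groups lay apart, and GPA1 was the only member called after TMM scaling, at 0.22 ± 0.06 (10.7% of genes called). On the deposited scale the count was 4 without 3IAA replicate A and 3 when 3IAA C was omitted. It was 1 on omitting DMSO A and 2 on omitting DMSO B, and after TMM scaling it was 0 on omitting any library but 3IAA C. The position of FUS1 relative to the median gene was 0.23 without 3IAA C. With the letters as a block, which pair these libraries, 9 of 10 members were higher, all but AGA1 (72.8% of genes called), STE18 (adjusted p = 0.0122) and SST2 (adjusted p = 0.00967) being added. The alpha-cell markers summed to 699 to 1008 per 1000000 in 3IAA cells, against 2087 to 2379 in DMSO cells, and the a-cell markers to 59.1 to 67.3 in 3IAA cells, against 38.4 to 48.1 in DMSO cells. Their part in these rises was not tested.

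The single tail depletions gave 0 calls among the members by limma on the deposited scale: Med15 of 8 tested (5.11% of genes called, 1 member at an unadjusted p under 0.05), Med16 of 10 (2.34%, 1 member), Med5 of 10 (0.701%, 0 members) and TID of 10 (5.72%, 1 member). By edgeR on recovered reads Med16 and Med5 also gave 0 calls of 10 (5.25% and 1.23% of genes called), with 1 member each at an unadjusted p under 0.05. After TMM scaling Med15 depletion lowered AGA1 by 0.56 ± 0.16 and FAR1 by 0.35 ± 0.09 (9.15% of genes called). AGA1 signal was 10.1, 15.3 and 9.90 in 3IAA cells, against 18.8, 18.7 and 13.2 in DMSO cells, which overlap. Only 1 of these calls was left on omitting 3IAA B, 3IAA C or DMSO C, and neither on omitting 3IAA A, DMSO A or DMSO B. With TID depletion FAR1 was lower after TMM scaling by 0.45 ± 0.11, at 190, 226 and 201 in 3IAA cells against 264, 330 and 230 in DMSO cells, a call lost without any 3IAA library or DMSO B, while 2 were lower without DMSO C (6.62% of genes called with all libraries). With the letters as a block, which pair these libraries, FAR1 and SST2 were called lower with TID depletion (22.8% of genes called) and AGA1 with Med16 depletion (log2 change -0.38, 12.5% of genes called). FUS1 was too low to test with Med15 depletion, at 3.27, 4.58 and 3.13 in 3IAA cells against 4.31, 4.02 and 4.68 in DMSO cells.

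**Figure D5:**
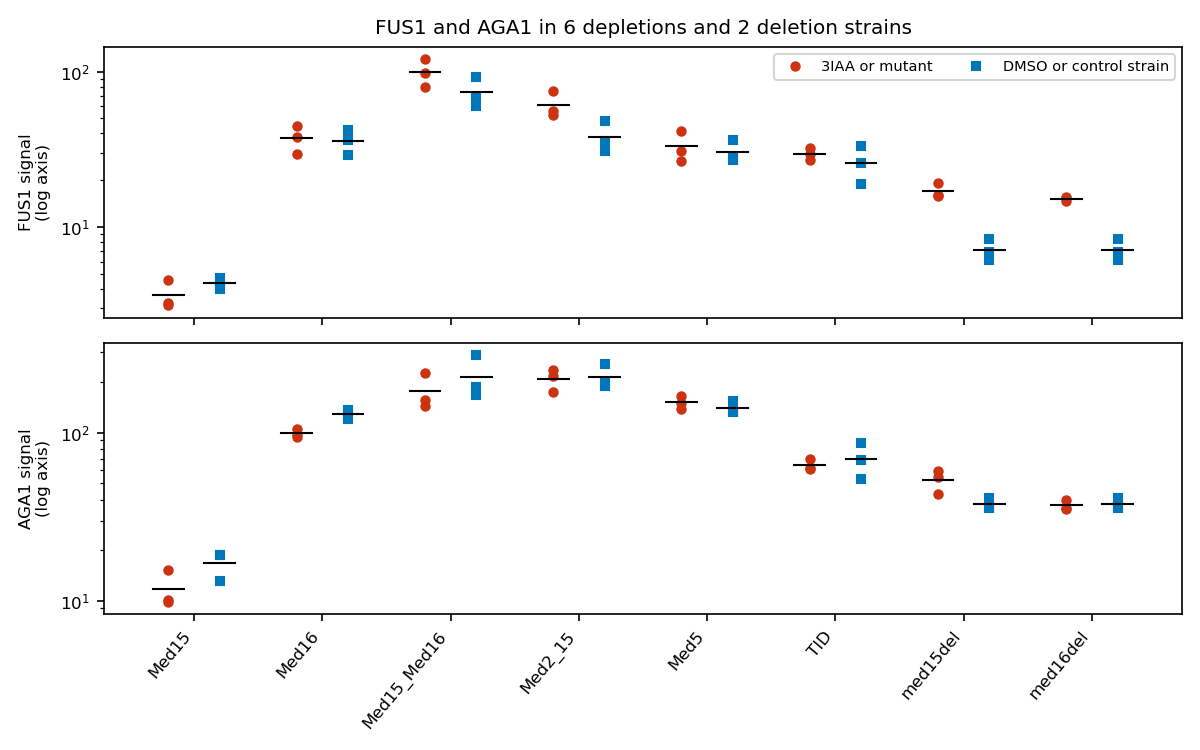
Deposited signal (log axis) of FUS1 and AGA1 in each library of the 6 depletions of tail subunits or the Med14 tail-interacting domain and the 2 deletion strains, circles for 3IAA or mutant and squares for DMSO or control strain, with bars for means. FUS1 is set apart from its controls in Med2_15, med15del and med16del, while AGA1 overlaps with its controls in 6 of the 8.

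With depletion of kinase-module subunits few members passed. With CDK8 depletion 0 of 9 members were called by limma (12.5% of genes called, 1 member at an unadjusted p under 0.05), but edgeR on recovered reads called 1 of 10 (16.9% of genes called). That gene was STE4, whose signal was 103, 93.1 and 85.7 in 3IAA cells, against 85.8, 75.5 and 74.7 in DMSO cells (log2 change 0.25 ± 0.09, adjusted p = 0.0854, and 0.0206 after TMM scaling, by which 18.6% of genes were called). Without DMSO replicate A limma called 1 member, and the TMM call was lost without 3IAA A or B or DMSO B or C. With Med12 depletion 3 of 9 were higher and none lower (17.4% called). AGA1 signal was 62.7, 72.7 and 71.0 in 3IAA cells, against 54.1, 62.4 and 51.1 in DMSO cells (log2 change 0.30 ± 0.09, adjusted p = 0.0419), and STE4 signal was 116, 109 and 114 in 3IAA cells, against 106, 84.7 and 89.8 in DMSO cells (0.27 ± 0.09, adjusted p = 0.0464). Neither pair overlapped, STE5 was the other gene called, and STE4 alone passed after TMM scaling (24.3% called). The count was 1 without 3IAA A or DMSO B and 0 without 3IAA B or C or DMSO C.

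Med9 depletion raised 6 of 8 members and lowered none (46.9% of genes called), and after TMM scaling 6 were higher and 1 lower (50.5%). AGA1 signal was 36.2, 34.7 and 38.1 in 3IAA cells, against 29.8, 26.9 and 26.8 in DMSO cells (log2 change 0.37 ± 0.07), and STE4 signal was 74.1, 70.8 and 75.1 in 3IAA cells, against 58.0, 57.6 and 57.1 in DMSO cells (0.34 ± 0.06). These groups did not overlap. GPA1 was the member lower after TMM scaling, by 0.26 ± 0.05, with 54.2, 46.9 and 52.6 in 3IAA cells and 57.6, 57.1 and 53.4 in DMSO cells, which overlap. Without DMSO replicate B 3 were higher after TMM scaling, and without 3IAA A 1 was lower on the deposited scale. Med1 depletion lowered 2 of 9 members (38% called), GPA1 by 0.41 ± 0.11 and FUS1 by 0.31 ± 0.11, and that count was 1 without 3IAA A or B. Med1_5 depletion lowered 7 of 9 (78.7% called, all-gene median -0.44), 4 without 3IAA A and 3 without 3IAA C. After TMM scaling limma called 0 members with either (6.83% and 4.48% of genes called, 3 and 0 members at an unadjusted p under 0.05), and so did edgeR on recovered reads (6.56% and 4.68%), with 3 and 1 members at an unadjusted p under 0.05. With Med7 depletion limma called 0 of 7 members (9.21% called, 1 member at an unadjusted p under 0.05), and 0 after TMM scaling (7.33%, 0 members), and edgeR on recovered reads called 0 of 10 (5.42%), with 0 at an unadjusted p under 0.05. AGA1 and FUS1 signals were at most 8.01 in any Med7 library.

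Differences between depletions were tested directly. Med15_Taf1 minus Med15 gave 5 members higher and 3 lower of 10 after TMM scaling (49.5% of genes called), AGA1 at 1.87 ± 0.19 and GPA1 at -0.84 ± 0.11 being the furthest. AGA1 had moved by 1.30 with Med15_Taf1 and by -0.56 with Med15 alone. On the deposited scale all 10 were lower (99.8% of genes called) and the difference in AGA1 was -0.80, so its direction depends on the scale. Med14 minus Med15 gave 2 higher and 1 lower of 8 (35.4%), again with AGA1 at 1.43 ± 0.19 and GPA1 at -0.53 ± 0.18, while on the deposited scale all 8 were lower (99.5%), AGA1 at -0.61. Med19 minus Med31 gave 1 higher of 9, AGA1 at 0.48 ± 0.11 (15.8%), and at 0.08 ± 0.18 on the deposited scale, which did not pass. There 3 of 9 were lower (48.1%), GPA1 at -0.61 ± 0.18 (adjusted p = 0.00452), STE4 at -0.57 ± 0.17 and FUS3 at -0.45 ± 0.18. Med15_Med16 minus Med15 gave 0 of 10 (7.76%), with FUS1 at 0.63 ± 0.25 (adjusted p = 0.109), 1 member at an unadjusted p under 0.05, and 1 called without Med15 DMSO replicate A. Med2_15 minus Med15 gave 0 of 10 after TMM scaling (0.32% of genes called, 3 members at an unadjusted p under 0.05), and 0 on the deposited scale (0.62%, 4 members at an unadjusted p under 0.05), where it was 2 without Med2_15 DMSO replicate C. With the replicate letters as a block, which pair the libraries of both, FUS1 was called in that difference (0.88 ± 0.25, adjusted p = 0.0302, 1.34% of genes called). FUS1 was too low to test with Med15 depletion alone. In this difference, in Med15_Med16 minus Med15 and in Med15_Taf1 minus Med15 it passed the filter only through the libraries of the double-degron strain. FUS1 is among the 5 members higher in Med15_Taf1 minus Med15, at 1.14 ± 0.20 after TMM scaling. The log2(signal + 1) scale understates the Med15 side, so these values do not show that the response of FUS1 differed. CDK8 minus Med12 gave 0 of 9 (0.395%, 3 members at an unadjusted p under 0.05), with AGA1 at -0.42 ± 0.12 (adjusted p = 0.117). All 7 differences, that between the stresses included, were fitted over all genes.

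Across the 28 degron and mutant comparisons, several of which share controls, the members moved in partial company when each change was taken relative to the median gene. Pearson's r was 0.76 between AGA1 and SST2, 0.74 between GPA1 and STE4, 0.73 between SST2 and STE12 and 0.67 between AGA1 and STE12. It was -0.18 between GPA1 and AGA1 and -0.22 between GPA1 and SST2. These are descriptions over comparisons that share controls and scaling. Over all 28 comparisons and 2598 other genes (2599 for AGA1 and FUS1, whose values below the filter were included), those most like AGA1 were UCC1, TAF5 and MSL5 (r of 0.87, 0.87 and 0.86), and those most like FUS1 were ART5, RSC6 and MOB2 (0.64, 0.64 and 0.61). SST2 was nearest to HSE1, MRPL3 and ASM4 (0.89, 0.88 and 0.86) and GPA1 to MCM3, UBP10 and FSF1 (0.81, 0.81 and 0.77). STE5 was nearest to SKI3 at 0.85 and, among pheromone-induced genes, to FIG2 at 0.84, and to MED1 at 0.84. For STE4 the nearest was CDC34 at 0.79, for STE12 TAF8 at 0.77, for FAR1 MOT3 at 0.78 and for FUS3 BAT2 at 0.70.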

How the data were processed

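New RNA of 177 libraries was sequenced. The 15 stress files hold raw read counts per gene, per the file values and as deposited by the authors. The other 162 hold signal values scaled by the authors before they were deposited, and their scale is not given in the sources used here. The submitters' processing notes name Bowtie2, HTSeq and the builds sacCer3 and ASM294v2, without roles. Signal was tested with limma 3.58.1 on log2(signal + 1), and counts with edgeR 4.0.16 (quasi-likelihood, TMM), in R 4.3.3, with Benjamini-Hochberg adjustment over all genes tested. Both were tested on simulated data in which a set of genes rose or fell. No general fall was simulated, so this does not bear on the comparisons with one. In 106 signal libraries 96.5 to 100% of low values were whole multiples of 1 step, within 0.1 step, and these recovered reads were tested with edgeR in 11 comparisons, with 66 to 2419 genes called. Alternatives were DESeq2 1.42.0, TMM scaling, a pseudocount of 5, no filter, and each library left out. Replicate letters pair the libraries in 15 of 32 comparisons, where the deviations of all 3 pairs correlated above 0.1. All 10 members were named, with library values for at most 2 rises and 2 falls per comparison or where the text turns on them, and at most 2 rises and 2 falls from each list. Members and lists were chosen with earlier results of these data known. Promoters came from RefSeq R64, in which 5792 of 5794 genes matched.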

Additional observations from a re-analysis of the deposited data

Results flagged for a closer look

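Changes differed between paired comparisons in 4 cases, each tested as a difference of the changes over all genes. After TMM scaling, Med15_Taf1 minus Med15 differed in 8 of 10 members (49.5% of genes called), with AGA1 at 1.87. FUS1, among these 8, passed the filter only through the Med15_Taf1 libraries. Med14 minus Med15 differed in 3 of 8 (35.4%), with AGA1 at 1.43, and Med19 minus Med31 in 1 of 9 (15.8%), AGA1 at 0.48. On the deposited scale AGA1 stood at -0.80, -0.61 and 0.08 in these 3 differences, the last not called. Between the stresses, Med15 depletion under HS minus that under SM differed in 4 of 10 (28.5%), with AGA1 at -0.96. The counts of 3, 1 and 4 lay near the share of all genes.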

How the results depend on the processing

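TMM scaling changed most counts. After it, between 4.48% (Med1_5) and 75.1% (Med15_Taf1) of all genes were called in the comparisons listed. Members higher were then 8 with Ccl1, 1 with CDK8, Med2_15 and Med12, 2 with Med7C and Med14, 4 with Med7N, Med10 and Med31, 5 with Med14C and Med17, 6 with Med19, 7 with Med15_Taf1, 1 in med15del and med7N_del, and 3 in med16del and Med7_EWE3. Members lower were 0 with Ccl1, Med1, Med1_5, Med7C, Med17 and Med31, 1 with Med7N, Med9, Med10, Med14, TID and Med19, 2 with Med15, 3 with Med14C and Med15_Taf1, 4 in med15del, 1 in med16del and med7N_del, 2 in Med7_EWE3, 3 in Med21_EWE4 and 5 in Med6_delH1. For Med15_Taf1 minus Med15 they were 5 higher and 3 lower, for Med14 minus Med15 2 and 1, and for Med19 minus Med31 1 and 0. With edgeR on recovered reads, 1 was higher with CDK8 (16.9% of genes called) and Med2_15 (10.6%), and 0 lower with Med1 (6.56%) and Med1_5 (4.68%). By that test 6 were higher and 1 lower with Med19 (39.2%), 4 and 0 with Med31 (36.8%), and 3 lower in Med21_EWE4 (12.4%). With the replicate letter as a block, 1 was higher with CDK8 and 5 with Med12. In that fit 1 was lower with Med9, Med15_Med16 (47.6% of genes called) and Med16 (12.5%), and 2 with TID (22.8%) and Med15 under HS (35.7%). For the differences the block gave 1 higher for Med2_15 minus Med15 (1.34%), 1 lower for CDK8 minus Med12 and 6 lower for Med19 minus Med31. Where no share is given beside a count in this section, the count shows only the dependence on the setting. Elsewhere the block changed no count by over 1.5 times. TMM scaling with no filter gave 2 higher with Med12, 0 lower with TID and 1 lower with Med15.

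Leaving out 1 library gave, after TMM scaling, higher counts of 0 to 1 for CDK8, Med12, Med15_Med16 and Med2_15, 1 to 2 for Med14, med15del and med7N_del, 3 to 5 for Med14C, 3 to 7 for Med19, 1 to 4 for Med31 and Med7C, 3 to 6 for Med9 and 1 to 3 for med16del. Lower counts were 1 to 2 for Med10 and Med7_EWE3, 0 to 2 for Med14 and TID, 0 to 1 for Med15, Med7N, med16del and med7N_del, 1 to 4 for Med21_EWE4 and 2 to 4 for med15del. On the deposited scale, higher counts were 0 to 1 for CDK8, Med15_Med16 and Med15_Med16 minus Med15, 0 to 3 for Med12, 2 to 5 for Med15 under HS, 1 to 9 for Med2_15, 0 to 2 for Med2_15 minus Med15 and 2 to 7 for med16del. Lower counts were 1 to 3 for Med1, 0 to 3 for Med15 under HS, 0 to 1 for Med15_Med16 and Med9 and 3 to 6 for Med1_5. A pseudocount of 5 reversed the change relative to the median gene of STE5 to -0.050 with Med10, -0.038 with Med14C and -0.17 with Med15_Taf1, and of STE12 to -0.020 with Med14C and -0.026 with Med15_Taf1. With no filter, STE5 stood at -0.020 with Med15_Taf1. The causes were not tested. TMM scaling without a filter, TMM scaling with a library left out and differences with a library left out were chosen after seeing the data. The filter on mean signal left FUS1 and STE18 untested in 5 and 22 of the 28 comparisons.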
